A study of Mus musculus with 15 samples.

Results

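The set holds 33 genes of the cell division cycle and of DNA replication, measured on arrays of mouse interscapular brown adipose tissue. Members were found by their gene symbol: a probe set counted where the platform annotation gave it 1 symbol, and a gene with several was represented by the one brightest on average in the 15 samples. This gave 32 of the 33 members among 18194 genes, and Ccnb1 was not analysed here. Of the 32, 26 lay above the filter on low values (5.06 on the log2 scale) and were tested with the 13174 genes that passed it. The 6 members under the filter were Bub1, Aurkb, Kif11, Kif20a, Cenpe and Tyms.

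All animals were adult male wt mice of strain C57BL/6N on a high-fat diet, and the tissue was taken on day 5. The 5 control mice (31 to 35) are labelled only as controls, and the labels do not name what they received. The 5 FGF21 mice (36 to 40) received human FGF21 at 1 mg/kg in each of 2 injections a day, or 2 mg/kg a day. The 5 aFGFR1/KLB mice (41 to 45) received the agonistic antibody bFKB1, directed against FGFR1 and KLB, as 1 intraperitoneal dose of 10 mg/kg. KLB is the co-receptor that FGF21 needs to act through FGFR1, so the design asks how a receptor antibody and the hormone compare in this tissue.

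A dividing cell passes from G1, where D-type and E-type cyclins promote entry into the cycle, to S phase, where the MCM helicase opens the DNA and PCNA holds the polymerases on it. CDK1 with cyclins A and B then drives mitosis, in which Aurora and Polo-like kinases, kinesins and kinetochore proteins move the chromosomes and a checkpoint with BUB1 and BUBR1 delays their separation. Most mature brown adipocytes do not divide, and precursor, endothelial and immune cells of the tissue can. Replication genes often carry E2F motifs in their promoters, while genes of mitosis often carry CCAAT boxes, bound by NF-Y, beside a cell cycle homology region (CHR), bound by the MuvB complexes.

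The promoters below are shown because members of different roles carry different motifs, while most of them moved together from mouse to mouse. Each run is the gene's own strand in RefSeq (GRCm38.p6), 5′ to 3′, from 250 bases before the annotated start to 15 bases from the start base on. Capitals mark 3 motifs on either strand. The NF-Y box reads CCAAT on one strand, which is seen as ATTGG where it lies on the opposite one. The CHR was searched as TTTGAA, which on the opposite strand is seen as TTCAAA in these runs. An E2F form was searched as TTGGCGC, and its opposite-strand matches are seen as GCGCCAA in these runs. Mki67 (chr7:135716365-135716629), Top2a (chr11:99024175-99024439), Cdk1 (chr10:69352898-69353162), Ccnb2 (chr9:70421540-70421804), Mcm6 (chr1:128359691-128359955) and Ccne1 (chr7:38107476-38107740) lie on the minus strand, and Mcm5 (chr8:75109259-75109523) on the plus strand.
Mki67: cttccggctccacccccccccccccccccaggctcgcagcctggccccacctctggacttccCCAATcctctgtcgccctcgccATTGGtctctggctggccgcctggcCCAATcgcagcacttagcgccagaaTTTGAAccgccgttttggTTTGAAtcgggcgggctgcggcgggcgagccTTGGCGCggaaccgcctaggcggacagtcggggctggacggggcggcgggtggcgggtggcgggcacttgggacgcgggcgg
Top2a: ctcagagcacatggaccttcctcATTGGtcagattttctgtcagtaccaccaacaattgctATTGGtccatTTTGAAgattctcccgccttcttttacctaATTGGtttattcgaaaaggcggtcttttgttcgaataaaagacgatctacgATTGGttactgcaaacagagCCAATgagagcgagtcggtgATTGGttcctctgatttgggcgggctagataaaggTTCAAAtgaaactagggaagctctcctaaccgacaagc
Cdk1: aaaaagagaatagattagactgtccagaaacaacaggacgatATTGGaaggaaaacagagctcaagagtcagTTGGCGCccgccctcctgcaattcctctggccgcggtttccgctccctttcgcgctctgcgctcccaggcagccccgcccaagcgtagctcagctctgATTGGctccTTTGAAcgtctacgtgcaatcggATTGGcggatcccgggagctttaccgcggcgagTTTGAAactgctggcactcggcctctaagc
Ccnb2: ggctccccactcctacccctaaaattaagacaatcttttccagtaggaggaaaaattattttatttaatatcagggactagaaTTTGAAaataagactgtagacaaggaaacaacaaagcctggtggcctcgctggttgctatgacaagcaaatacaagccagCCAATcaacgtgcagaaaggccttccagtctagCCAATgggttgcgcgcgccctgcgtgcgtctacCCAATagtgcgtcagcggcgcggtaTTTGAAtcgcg
Mcm5: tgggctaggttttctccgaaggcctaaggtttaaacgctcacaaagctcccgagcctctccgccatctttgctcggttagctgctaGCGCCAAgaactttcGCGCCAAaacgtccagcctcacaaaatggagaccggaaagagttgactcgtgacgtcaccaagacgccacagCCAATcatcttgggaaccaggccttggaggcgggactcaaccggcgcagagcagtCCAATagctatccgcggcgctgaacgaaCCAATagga
Mcm6: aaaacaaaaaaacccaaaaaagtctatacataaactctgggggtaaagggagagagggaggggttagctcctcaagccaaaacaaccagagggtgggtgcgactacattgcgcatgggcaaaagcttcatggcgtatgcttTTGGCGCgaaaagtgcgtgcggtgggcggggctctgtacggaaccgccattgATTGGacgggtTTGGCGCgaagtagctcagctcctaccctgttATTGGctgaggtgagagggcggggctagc
Ccne1: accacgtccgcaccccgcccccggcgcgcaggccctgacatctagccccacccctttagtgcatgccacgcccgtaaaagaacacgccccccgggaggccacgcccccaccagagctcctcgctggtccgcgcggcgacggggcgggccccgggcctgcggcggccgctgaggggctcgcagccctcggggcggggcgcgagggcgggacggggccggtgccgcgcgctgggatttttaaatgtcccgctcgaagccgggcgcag

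In the Mki67 run the 3 CCAAT boxes lay upstream of 2 CHR matches, and the E2F form followed at 67 bases before the start. In Cdk1 a CHR match began 15 bases before the start, and in Ccnb2 one began 4 bases after the start base. The Mcm5 and Mcm6 runs each held the E2F form at 2 places and no CHR. The Ccne1 run held none of the motifs searched.

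RefSeq's table held promoters for 26 of the 33 members, and Ccnd2, Kif20a, Mcm4, Ccna2, Aurkb, Ccnd1 and Tpx2 had none in it. The search covered 300 bases, 250 before to 50 after the start, on both strands, for these 3 motifs and for a further E2F form, which was TTCCCGC. The NF-Y box was in 22 of the 26 members and in 37.4% of all 32851 promoters. TTTGAA was in 12 members and in 17.9% of all promoters. It was found in 11 of the 16 members of the mitotic roles, against 1 of the 9 replication members (Mcm2). All 12 also held CCAAT, a pair found in 6.95% of all promoters. Either E2F form was in 8 members (6.81% of all promoters), 5 of them among the 9 replication members (Rrm1, Mcm3, Mcm5, Mcm6 and Mcm7) and 3 mitotic (Mki67, Cdk1 and Ccnb1). TTGGCGC was in 7 members (2.45% of all promoters) and TTCCCGC in 3 (4.6%), and Mcm3 and Mcm7 held both. Read on the other strand, TTGGCGC ends in CCAA and can overlap a CCAAT box, as it did in Ccnb1 and Mcm7. These matches are descriptions of sequence and were not tested for binding.

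The tissue label was checked against its markers: Ucp1, the uncoupling protein of brown fat, lay between 14.52 and 14.82 on the log2 scale in all 15 samples, and Adipoq, the adipocyte hormone adiponectin, between 14.06 and 14.23. Array medians lay between 50.6 and 52.1 on the linear scale, and any 2 samples correlated at 0.925 to 0.996 over the tested genes. Control 34 and FGF21 36 stood apart: they had the highest Cd68 levels (11.43 and 11.91, against 7.61 to 10.33 in the other 13). Cd68 encodes a lysosomal membrane protein abundant in macrophages. The log2 of the summed intensity of 22 macrophage markers, 21 of them above the filter (Itgam was not), was 16.20 and 16.46 in these mice. It ran from 13.14 to 16.20 over the controls, 13.58 to 16.46 over FGF21 and 13.92 to 14.81 over the antibody group. Results below are therefore given with and without control 34 and FGF21 36.

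No member rose or fell past the threshold (limma, adjusted p under 0.05 over all tested genes) in any of the 3 comparisons of groups. The count was 0 of 26 for the antibody against control, where 5.18% of all tested genes passed. It was 0 of 26 for FGF21 against control, where 6.32% passed. It was 0 of 26 for the antibody against FGF21, where 0.372% passed. At an unadjusted limma p under 0.05 the counts were 1, 0 and 2 members, where 19.4%, 20.4% and 13.5% of all genes passed. These counts depended on single mice and on the weighting of arrays. For FGF21 against control it was 8 without control 34 (31.8% of all genes). For the antibody against FGF21 it was 14 without FGF21 37 (16.7% of all genes), 9 without control 34 (19.2%) and 10 with array weights (23.7%). Without control 34 and FGF21 36 the counts past the threshold were again 0 of 26, 0 of 26 and 0 of 26, against 12.4%, 16.2% and 1.83% of all genes, and 0, 3 and 4 members had an unadjusted limma p under 0.05 (27.1%, 30.9% and 15.4% of all genes).

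The fitted differences leaned in 1 direction in each comparison, and single mice moved the size of that lean. All 26 members were nominally lower with the antibody than in the controls, with a median log2 fold change of −0.27 (−0.02 over all genes). Without control 34, alone or with FGF21 36, that median was −0.05, with 11 of 26 above 0. For FGF21 against control 19 of 26 were above 0 with a median of 0.14, and 22 of 26 with a median of 0.24 without the 2 mice (−0.02 over all genes in both). Leaving out only 1 of them moved this in opposite ways: the median was −0.01 with 13 of 26 above 0 without FGF21 36, and 0.34 with 23 of 26 without control 34. It was 0.02 without control 32, 0.03 without control 33, 0.06 without FGF21 39 and 0.29 without FGF21 37. Between the treatments 25 of 26 were below 0 with a median of −0.38 (0.01 over all genes), and all 26 with a median of −0.21 without the 2 mice or without FGF21 36 alone. Both comparisons with control use the same 5 control mice. Standard errors of the members were 0.079 to 0.57, with a median of 0.25. With both mice left out their medians were 0.15 to 0.16.

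**Figure D1:**
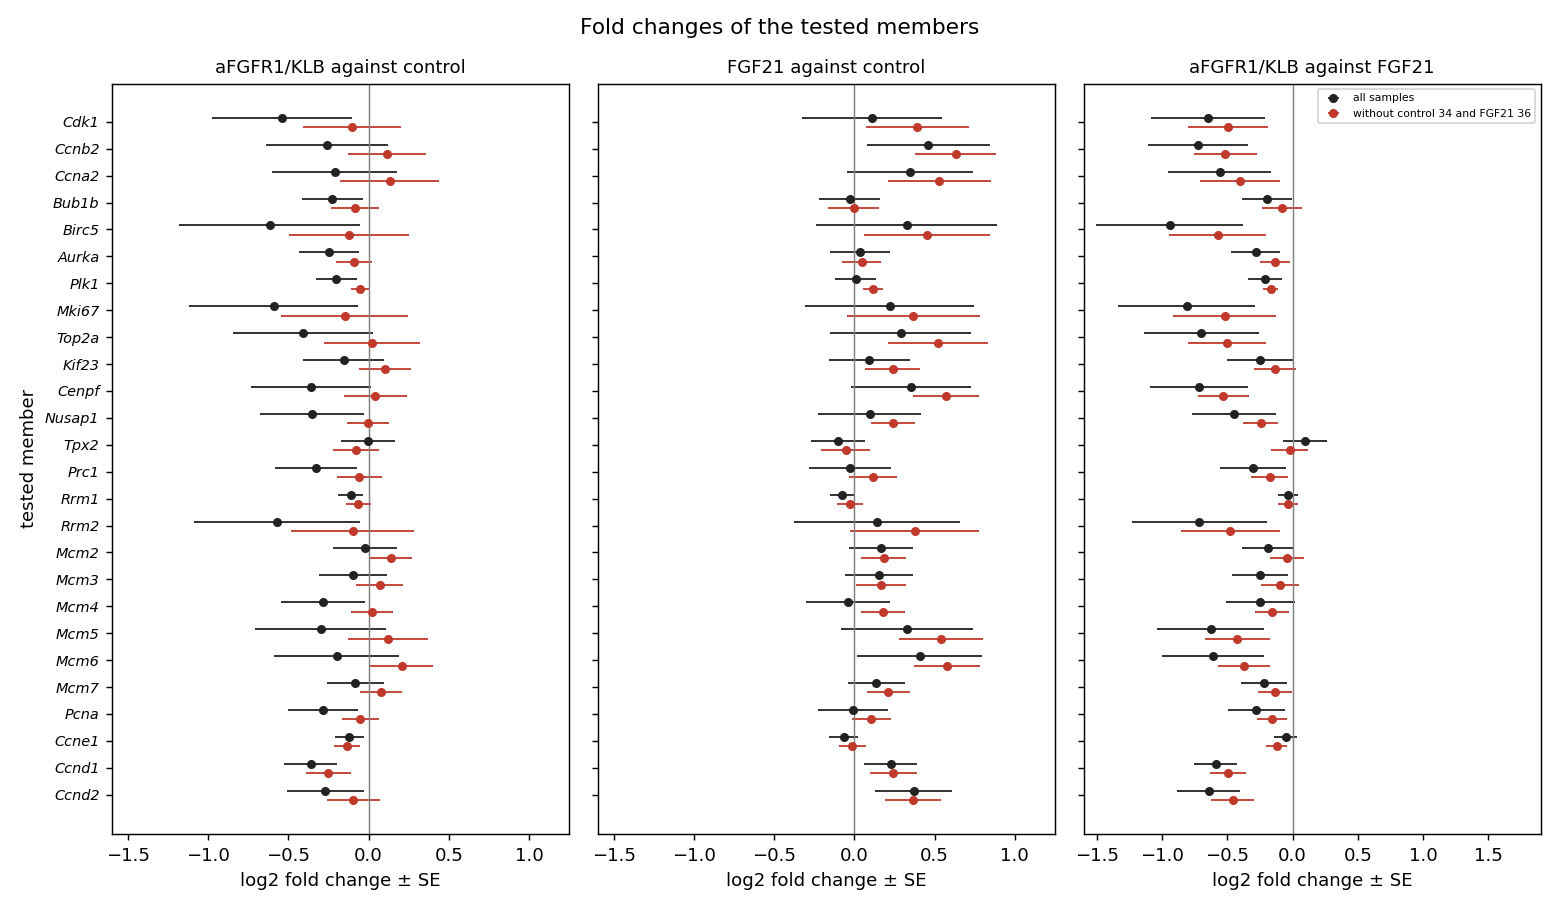
Log2 fold change with its limma standard error for the 26 tested members in each of the 3 comparisons, black for all samples and red without control 34 and FGF21 36. In the comparison of the antibody with control all 26 black points lie below 0, while 11 red points lie above it.

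Among the mitotic kinases, cyclins and checkpoint genes, Cdk1, the kinase that starts mitosis, had log2 levels of 6.54, 5.99, 5.91, 8.44 and 6.60 in controls 31 to 35. They were 7.40, 5.58, 7.05, 7.16 and 6.82 in FGF21 36 to 40, and 5.65, 6.28, 6.51, 5.81 and 6.53 in aFGFR1/KLB 41 to 45. Control 34 was the highest of all 15 and FGF21 36 the next, FGF21 37 was the lowest, and every pair of groups overlapped. The antibody was at −0.54 ± 0.44 (SE) against control, with a 95% interval of −1.47 to 0.39 and an adjusted p of 0.561. With control 34 and FGF21 36 left out the difference was −0.10 ± 0.31.

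Ccnb2, a B-type cyclin that activates CDK1, showed the largest nominal FGF21 difference of the tested members. Its levels were 5.79 to 7.88 in controls (median 6.11), 5.78 to 7.66 with FGF21 (median 6.99) and 5.69 to 6.39 with the antibody (median 6.28). The FGF21 difference from control was 0.46 ± 0.38 (interval −0.36 to 1.28, adjusted p = 0.56). Once control 34 and FGF21 36 were left out it was 0.63 ± 0.25 with an adjusted p of 0.111. Birc5, which encodes survivin, a member of the chromosomal passenger complex, had the widest spread over all 15 samples (SD 0.995). It read 8.15 in control 34 and 7.97 in FGF21 36, against 4.79 in FGF21 37 and 4.84 in aFGFR1/KLB 44. Its difference between antibody and FGF21 was −0.94 ± 0.57 (interval −2.15 to 0.27).

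The other members of this role were Ccna2, cyclin A2 of S phase and mitosis, the checkpoint genes Bub1 and Bub1b, and the kinases Aurka, Aurkb and Plk1. The fitted differences of the 7 tested members of the role were −0.62 to −0.20 (median −0.25) for the antibody against control. They were −0.03 to 0.46 (median 0.11) for FGF21 against control. Bub1 read 6.89 in control 34 and 3.83 to 4.18 in the other 4 controls, below the filter level, so no ratio is given. Plk1 and Aurka, kinases of the centrosome and spindle, had tight controls apart from that mouse: Aurka read 5.61 to 5.70 in the other 4 and 6.45 in control 34.

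Among the genes of the spindle, kinetochore, cytokinesis and mitotic chromosomes, Mki67, the gene of the proliferation marker Ki-67 that coats mitotic chromosomes, read 7.52, 6.68, 6.83, 9.28 and 7.27 in the controls. It read 8.90, 5.85, 7.89, 8.32 and 7.70 with FGF21, and 6.49, 7.05, 7.10, 6.67 and 7.31 with the antibody. The range over 15 mice, 3.42, was the widest of all members, and control 34 stood 4.60-fold above the mean of the other controls. FGF21 held both the next highest mouse (36) and the lowest (37). The antibody differed by −0.59 ± 0.53 from control (interval −1.72 to 0.54, adjusted p = 0.606) and by −0.81 ± 0.53 from FGF21 (adjusted p = 0.504).

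Top2a, topoisomerase II alpha, which untangles replicated chromosomes, read 5.90 to 8.43 in controls (median 6.60), 5.79 to 7.79 with FGF21 (median 7.20) and 5.93 to 6.56 with the antibody (median 6.52). Control 34 read highest and FGF21 36 next, and the groups overlapped. Control 34 lay 2.15 above the mean of the other controls on this probe set, and 0.44 above and 0.39 below it on the dimmer ones. Cenpf, a kinetochore and nuclear matrix protein, read 4.42 to 6.99, 4.92 to 6.46 and 4.91 to 5.18 in the same order of groups. Its FGF21 difference from control was 0.35 ± 0.37, and 0.57 ± 0.21 without the 2 mice (adjusted p = 0.079). Without control 34 alone it passed, at 0.76 with an adjusted p of 0.0493 (15.9% of all genes passed there). Kif23 and Prc1, which build the central spindle of cytokinesis, and Nusap1, a microtubule binding protein, had differences of −0.35 to −0.15 for the antibody and of −0.03 to 0.09 for FGF21, each against control.

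Kif11 and Tpx2 read differently from the other spindle genes on the probe set used. Kif11 encodes the kinesin Eg5, which pushes the spindle poles apart. It read 5.29, 4.99, 5.00, 5.13 and 5.24 in controls, 4.99, 4.95, 4.99, 5.00 and 4.99 with FGF21, and 4.88, 4.88, 4.87, 4.77 and 4.99 with the antibody. Control 34 did not stand out, and only aFGFR1/KLB 45 reached the lowest controls. Kif11 was under the filter. In a fit without the filter the antibody difference was −0.25 ± 0.07, with a limma adjusted p of 0.0521 (3.11% of all genes passed there). Without the 2 mice and the filter Kif11 passed at −0.25 ± 0.07 (limma adjusted p = 0.0466), when 7.80% of genes did. That setting was chosen after the data were seen. The dimmer probe sets of Kif11 showed another pattern: on these control 34 lay 1.60 and 1.14 above the mean of the other controls, against 0.00 on the brightest one.

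Tpx2, a spindle assembly factor that activates Aurora A, read 5.98 in control 34 and 5.69 in FGF21 36, the 2 lowest of all mice, against 6.03 to 6.77 in the others. That order held on the brightest probe set only: on the next, control 31 (5.37) and FGF21 40 (5.49) read below FGF21 36 (5.59) and control 34 (5.65). On the 2 brightest, control 34 lay at −0.37 and −0.13 from the other controls, and on the 2 dimmest, with means of 4.32 and 4.16, it lay 1.20 and 0.99 above them. Which probe sets report the mature transcript was not tested.

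Among the genes of nucleotide supply and replication, Rrm2, the cell cycle regulated subunit of ribonucleotide reductase, which makes deoxyribonucleotides, read 6.21, 5.25, 5.00, 8.06 and 6.32 in controls. It read 7.25, 4.81, 6.29, 6.76 and 6.41 with FGF21, and 5.28, 5.58, 5.85, 5.17 and 6.08 with the antibody. Its partner subunit Rrm1 stayed within 8.36 to 8.90 in all 15 mice (SD 0.12, against 0.89 for Rrm2). The antibody difference from control was −0.57 ± 0.52 for Rrm2 (interval −1.68 to 0.54) and −0.11 ± 0.08 for Rrm1 (interval −0.28 to 0.06). Tyms, thymidylate synthase, read 4.12 to 4.84 in all mice and was under the filter.

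The MCM genes encode the 6 subunits of the replicative helicase. Mcm6 read 7.13, 6.78, 6.73, 8.98 and 7.17 in controls, 8.71, 6.84, 7.74, 8.02 and 7.54 with FGF21, and 6.96, 7.13, 7.38, 6.97 and 7.37 with the antibody. Apart from FGF21 37, every FGF21 mouse lay above all controls but control 34. Its FGF21 difference was 0.41 ± 0.39, and 0.58 ± 0.21 without the 2 mice (interval 0.13 to 1.03, adjusted p = 0.0766). On the probe sets used, control 34 stood above the mean of the other controls by 2.09 for Mcm5, 2.03 for Mcm6, 1.53 for Mcm4, 0.82 for Mcm3 and 0.80 for both Mcm2 and Mcm7. The size depended on the probe set: it was 1.67 and 1.33 on the next brightest of Mcm3 and 1.60 on another of Mcm2, so no order of the subunits can be read from it. Pcna, the sliding clamp, read 9.96 to 10.20 in 4 controls and 11.22 in control 34. Its difference from control was −0.28 ± 0.22 with the antibody and −0.01 ± 0.22 with FGF21 (interval −0.48 to 0.46).

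Ccnd1 encodes cyclin D1, which links growth factor signals to G1 progression. On the probe sets used, it was the only tested member with a comparison in which the groups did not overlap. It read 8.62, 9.03, 9.18, 9.42 and 8.65 in controls, 9.58, 8.79, 9.18, 9.48 and 9.0 with FGF21, and 8.58, 8.56, 8.75, 8.56 and 8.64 with the antibody. Every antibody mouse lay below every FGF21 mouse, as in 2.30% of all tested genes, and the antibody range ended inside the lower part of the control range. The difference from FGF21 was −0.59 ± 0.16 (interval −0.94 to −0.24), with an unadjusted limma p of 0.0029 and an adjusted p of 0.145. Without the 2 mice it was −0.49 ± 0.14 with an adjusted p of 0.101, and the groups again did not overlap (3.13% of genes). Its 3 probe sets gave −0.59, −0.59 and −0.43, with adjusted p of 0.129 to 0.192 over all probe sets. On the dimmest of them the groups overlapped, with aFGFR1/KLB 45 at 7.29 and FGF21 37 at 7.15. Against control the difference on the probe set used was −0.36 ± 0.16 with an adjusted p of 0.243.

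Ccnd2, cyclin D2, read 8.74, 8.90, 9.0, 9.77 and 8.90 in controls, 10.16, 9.16, 8.99, 9.55 and 9.30 with FGF21, and 9.13, 8.23, 8.97, 8.62 and 9.01 with the antibody. It differed by −0.64 ± 0.24 between antibody and FGF21 (adjusted p = 0.277), with overlap. Ccne1, cyclin E1, which starts S phase with CDK2, had a spread over the mice (SD 0.14) below that of the median tested gene (0.17). Its means were 6.77 ± 0.09 in controls, 6.70 ± 0.20 with FGF21 and 6.65 ± 0.11 with the antibody (SD, n = 5 each). A dimmer probe set of Ccne1, with a mean of 6.18, read differently. There every antibody mouse (5.95 to 6.10) lay below every FGF21 mouse (6.24 to 6.34). Such a separation held in 2.30% of all tested genes on the probe sets used, and its share over all probe sets was not counted. The antibody was at −0.21 against control and −0.24 against FGF21 (limma adjusted p of 0.0976 and 0.137 over all probe sets).

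**Figure D2:**
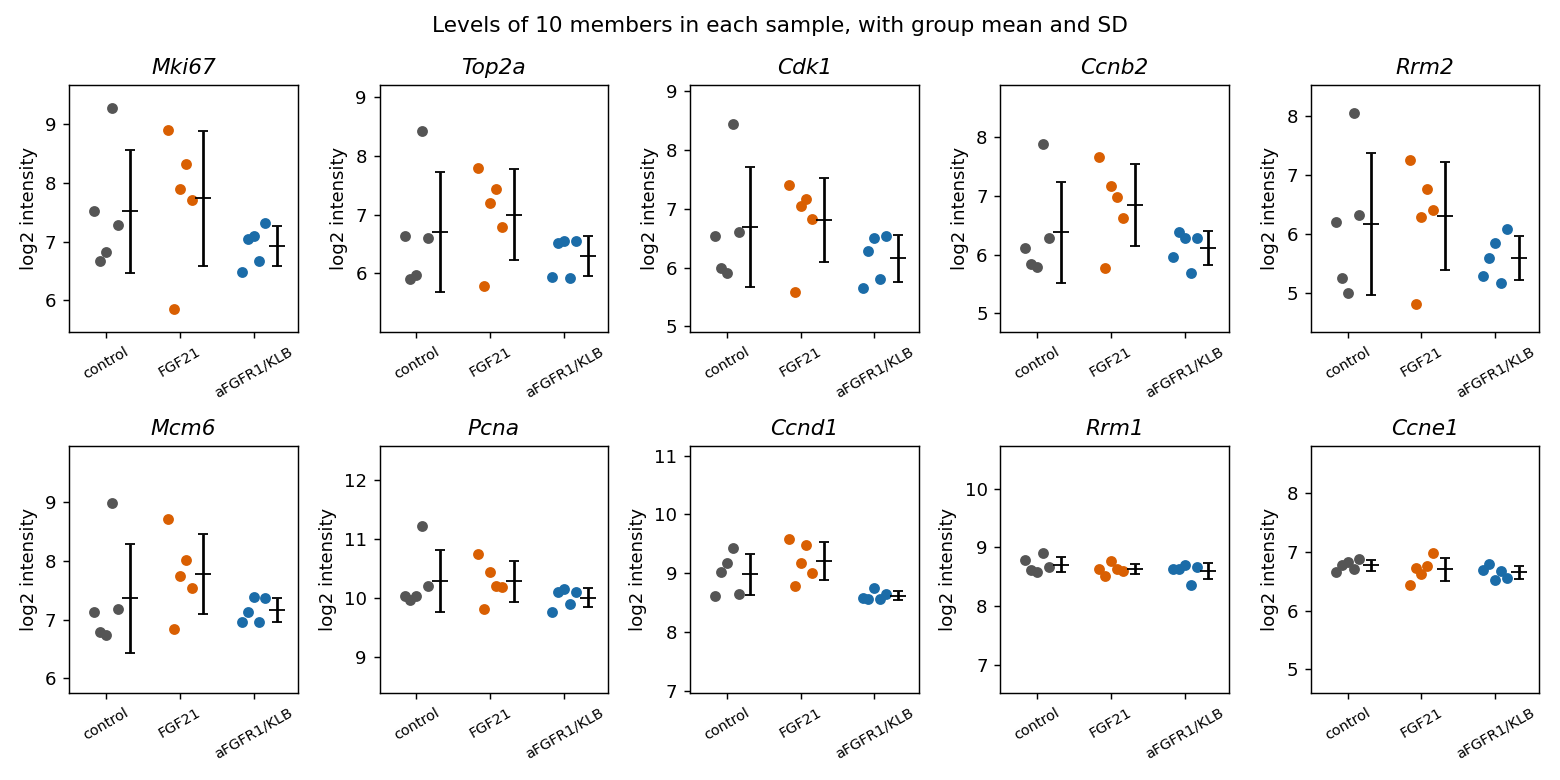
Log2 intensity of 10 members in each sample by group, with points for mice and bars for the group mean and SD; each panel spans the same height on the log2 scale. Mki67, Top2a, Cdk1, Ccnb2, Rrm2, Mcm6 and Pcna have their highest control, control 34, far from the other 4, while Rrm1 and Ccne1 vary little and the Ccnd1 antibody points lie below all FGF21 points.

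With all 15 mice the members varied more between mice of a group than most genes did, and less in the antibody group than in the others. The median SD of the tested members was 0.61 in the controls, 0.45 with FGF21 and 0.16 with the antibody. Over all tested genes it was 0.16, 0.16 and 0.11. These medians include control 34 and FGF21 36 and were not taken without them. Without control 34 the control SD was 0.04 for Aurka and 0.10 for Pcna, below their antibody SDs of 0.15 and 0.17. It was 0.39 for Mki67 and 0.67 for Rrm2, above their antibody SDs of 0.34 and 0.38. Control 34 was the highest control in 29 of 32 members (31.5% of all tested genes), the exceptions being Kif11, Tpx2 and Ccne1. FGF21 36 was the highest FGF21 mouse in 27 of 32 (28.9% of all tested genes). They were the 2 highest of all 15 mice in 26 of 32 members, against 13.5% of all tested genes. The exceptions on the probe sets used were Kif11, Kif20a, Tpx2, Rrm1, Ccne1 and Ccnd1. For some of them this depended on the probe set. On a dimmer one control 34 and FGF21 36 read highest of all 15 mice for Ccnd1 (9.41 and 9.36). The same held on dimmer ones with means under the filter for Kif11 (6.30 and 6.00) and Tpx2 (5.41 and 4.54), though not on every dimmer one of Tpx2. At the other end FGF21 37 was the lowest FGF21 mouse in 26 of 32 members and the lowest of all 15 in 14. The share of all tested genes in which it was lowest was not counted. Its median deviation from the mean of the 15 mice was −0.445 over the 32 members and −0.006 over all tested genes.

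**Figure D3:**
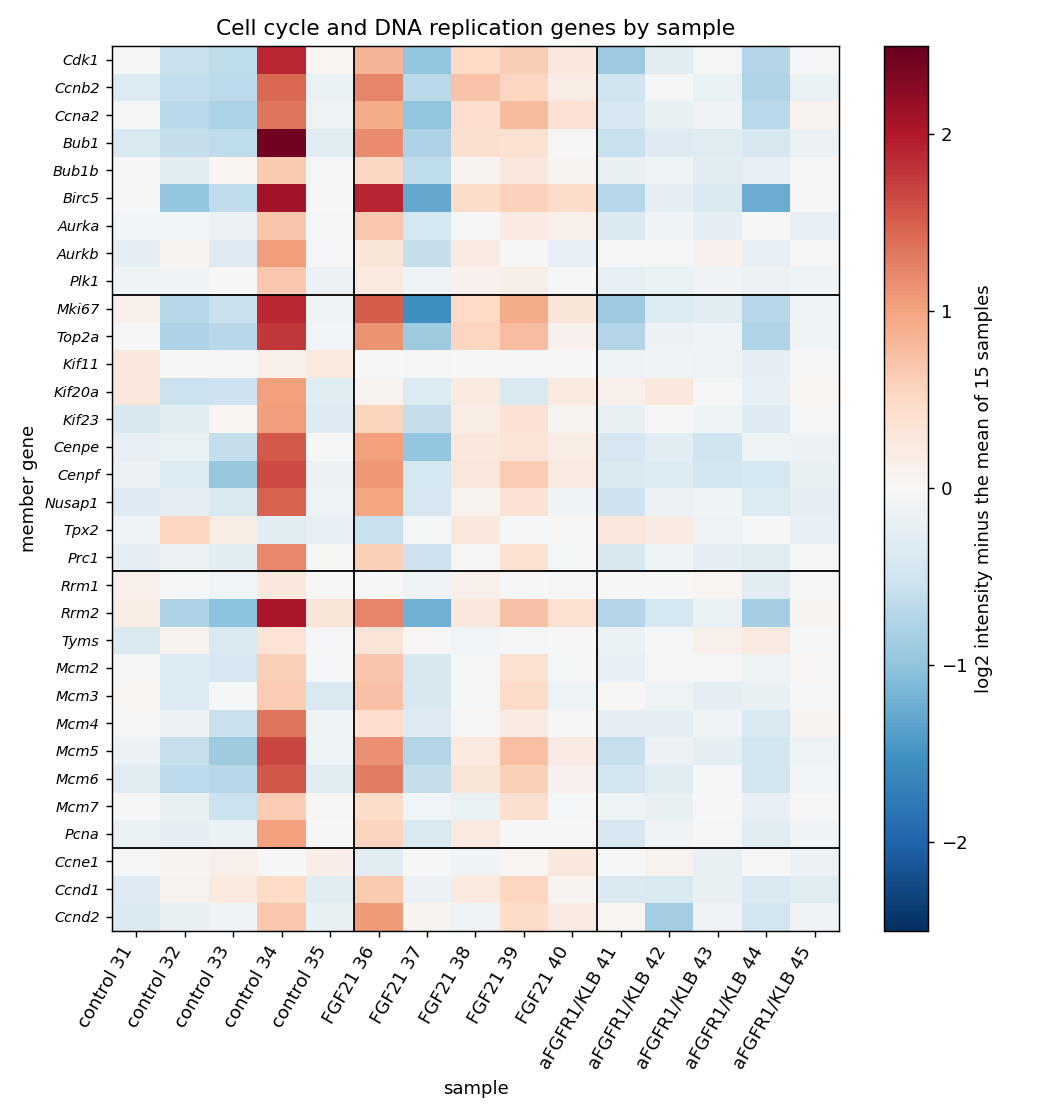
Each of the 32 measured members (rows, by role, separated by lines) in each of the 15 samples (columns, by group), coloured by log2 intensity minus the member's mean over the 15. Control 34 and FGF21 36 form red columns that are pale or broken at Kif11, Tpx2, Rrm1 and Ccne1, and FGF21 37 forms a blue column. For Rrm1 control 34 is the highest of the 15 (8.90, against a mean of 8.65), and for Kif11 it also lies above the mean.

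Most members followed Cd68 from mouse to mouse. Within groups, that is with group means in the limma model, the slope on Cd68 was positive and passed in 22 of 26 members, where 17.6% of all genes had a positive slope that passed. It was negative in 1 (Tpx2), where 20.0% of all genes passed. The sign for Tpx2 depended on the probe set: the slope was −0.17 and −0.07 on the 2 brightest, and 0.21 and 0.20 on the 2 dimmest, which lay under the filter. Rrm1, Ccne1 and Ccnd1 did not pass (adjusted p of 0.0848, 0.235 and 0.0517). This depended on the setting for Ccnd1 and Rrm1. Ccnd1 passed with the mean of the other macrophage markers in place of Cd68, and without control 31, 32, 33 or 35. It did not pass without control 34 or FGF21 36. Rrm1 passed without aFGFR1/KLB 44. Rrm2 rose by 0.72 ± 0.05 on the log2 scale per log2 unit of Cd68 (adjusted p = 1.51e-07), Mki67 by 0.73 ± 0.06, Birc5 by 0.78 ± 0.06 and Mcm6 by 0.54 ± 0.04. Mcm2 had a slope of 0.27 ± 0.03 and Plk1 of 0.14 ± 0.03.

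Without control 34 and FGF21 36 the count with a positive slope was 11 of 26, where 2.69% of all genes passed, and none was negative (0.281% of all genes). These were Birc5, Ccna2, Ccnb2, Cdk1, Cenpf, Mcm2, Mcm5, Mcm6, Mki67, Rrm2 and Top2a. Rrm2 (0.80 ± 0.07, adjusted p = 4.14e-05) and Mki67 (0.79 ± 0.10) had slopes near those with all mice, while the slope of Plk1 was 0.04 ± 0.03 and that of Ccnd2 was 0.02 ± 0.10. In such tissue samples the number of cells of a type and the RNA per cell cannot be told apart.

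Over the 15 mice the Pearson correlation with Cd68 had a median of 0.82 over the tested members (−0.14 over all genes), and 0.69 without the 2 mice farthest from the median of Cd68, which were FGF21 36 and control 34. By permutation (100000 draws, two-sided, adjusted over 13173 genes) 23 of 26 passed, 22 of them positive, against 15.7% of all genes positive and 18.5% negative. The draws ignored the 3 groups, so differences between groups enter these correlations and their p-values. Mcm6 had r = 0.94 (permutation p = 1e-05, the smallest the draws can give, adjusted p = 0.00037) and rho = 0.98 (permutation p = 1e-05, adjusted p = 0.00075), and r = 0.91 without the 2 farthest. Mki67 had r = 0.89 (permutation p = 3e-05, adjusted p = 0.0007) and rho = 0.87 (permutation p = 0.0001, adjusted p = 0.0029), and r = 0.78 without them. For Ccnd1 r was 0.55 (permutation p = 0.034, adjusted p = 0.083), rho was 0.50 (permutation p = 0.059, adjusted p = 0.16), and r was 0.14 without them, so its relation rested on those mice.

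**Figure D4:**
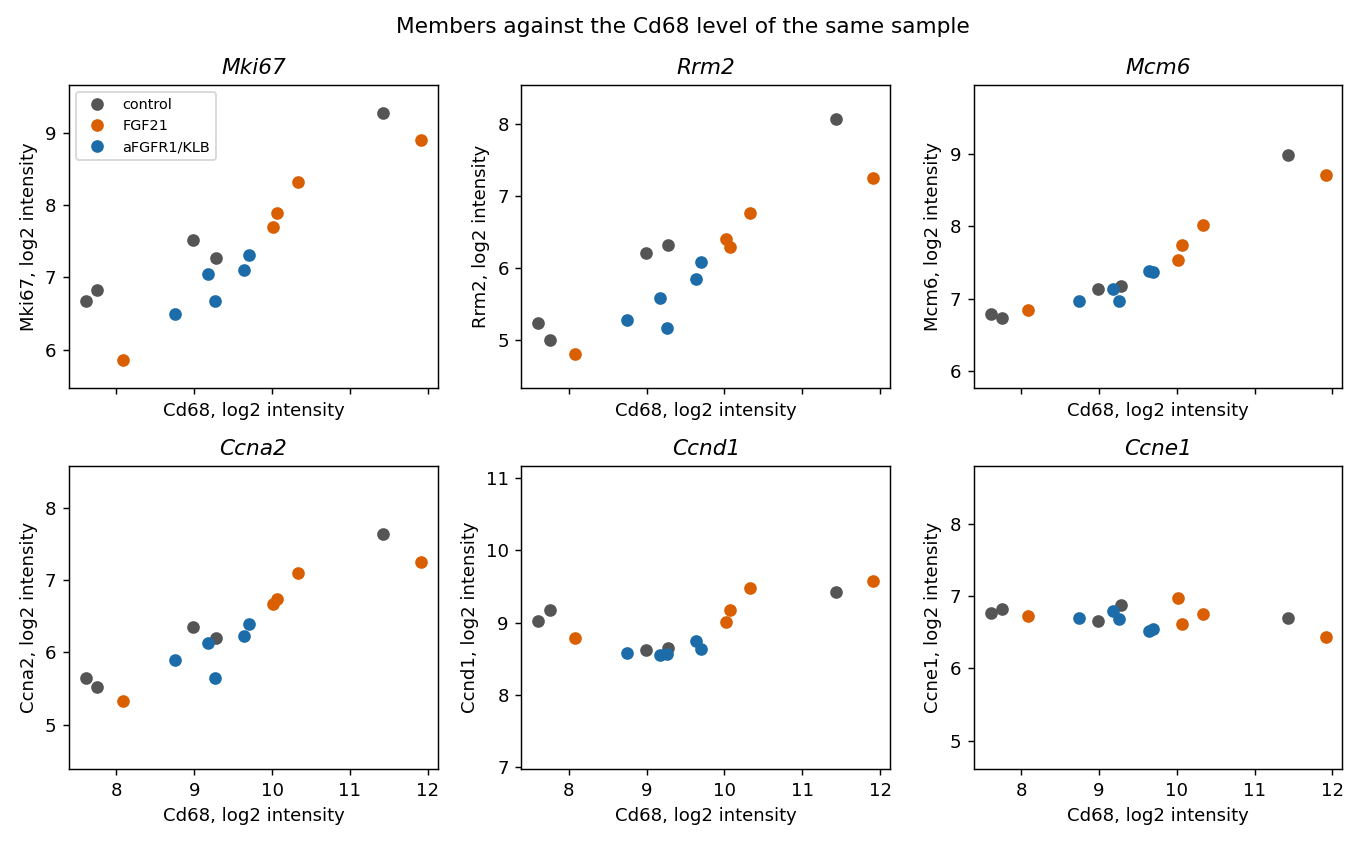
Log2 intensity of 6 members against the Cd68 log2 intensity of the same mouse, coloured by group; the vertical axes span equal heights. Mki67, Rrm2, Mcm6 and Ccna2 rise with Cd68 over the mice of each group, and Ccne1 does not rise. Ccnd1 rises weakly over all 15 mice, but controls 32 and 33, with the lowest Cd68, read higher than controls 31 and 35.

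Of the other marker lists, the fibroblast and adipose progenitor sum was highest, and the brown adipocyte sum lowest, in control 34 and FGF21 36 within their groups. The summed level of 12 measured fibroblast and adipose progenitor markers, all above the filter, was 15.90 in control 34 and 15.60 in FGF21 36. It was 14.09 to 14.67 in the other controls, 14.19 to 14.94 in the other FGF21 mice and 13.88 to 14.49 with the antibody. The sum of 13 measured brown adipocyte markers, all above the filter, was 17.07 in control 34 and 17.09 in FGF21 36, against 17.16 to 17.19 in the other controls, 17.22 to 17.24 in the other FGF21 mice and 17.18 to 17.27 with the antibody. The other lists did not follow both mice. The 16 endothelial markers, all above the filter, ran from 12.52 to 12.82, 12.67 to 13.14 and 12.75 to 12.94 in the 3 groups in the same order, with 12.82 in control 34, 12.69 in FGF21 36 and the highest value in FGF21 37. Of 12 measured T, NK and B cell markers, 8 were above the filter (Cd3g, Jchain, Ms4a1 and Ncr1 were not), with sums of 10.96 to 11.58, 10.14 to 10.90 and 10.20 to 11.16 (11.02 in control 34 and 10.88 in FGF21 36). Of 5 measured erythroid markers 3 were above the filter (Hba-a1 and Slc4a1 were not), with sums of 8.72 to 8.94, 8.70 to 9.51 and 8.81 to 9.03, where control 34 was the lowest control and FGF21 36 the highest FGF21 mouse. The 14 skeletal muscle markers, all above the filter, ran from 13.30 to 15.19, 10.22 to 17.01 and 12.04 to 17.11 (14.15 in control 34 and 17.01 in FGF21 36). The part of fibroblasts, brown adipocytes, endothelium, lymphoid cells, blood and muscle in the members' levels was not tested.

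At equal Cd68 the comparison of groups read differently. With Cd68 as a covariate 13 of 26 members were lower with the antibody than in control, where 8.68% of all genes were called lower. They were Aurka, Birc5, Bub1b, Cdk1, Cenpf, Mcm5, Mcm6, Mki67, Nusap1, Pcna, Prc1, Rrm2 and Top2a. Rrm2 fell by 0.79 ± 0.13 on the log2 scale (adjusted p = 0.00209), Mki67 by 0.80 ± 0.15 (adjusted p = 0.00431) and Birc5 by 0.84 ± 0.17 (adjusted p = 0.00475). With both mice left out 5 members passed (Birc5, Cdk1, Mki67, Rrm2 and Top2a), where 5.32% of genes were lower. With the mean of the macrophage markers in place of Cd68 only Rrm2 passed, at −0.56 ± 0.17 (adjusted p = 0.0408), where 6.93% of genes were lower. The last 2 settings were chosen after the data were seen.

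For FGF21 against control the covariate turned the direction of most members: 3 of 26 were above 0 with a median of −0.22, against 19 of 26 and 0.14 without it. Of these, 2 passed. Mki67 and Rrm2 read 0.22 ± 0.53 and 0.14 ± 0.52 without the covariate. With it Mki67 fell by 0.56 ± 0.17 (adjusted p = 0.0485) and Rrm2 by 0.64 ± 0.14 (adjusted p = 0.0126), and 5.05% of all genes were called lower. With control 34 and FGF21 36 left out Rrm2 passed alone (−0.60 ± 0.15, adjusted p = 0.0276), where 4.71% of genes were called lower, and with the marker mean none passed, where 5.58% were. Cd68 itself read 1.07 ± 0.69 higher with FGF21 than in control (adjusted p = 0.431), and 0.29 ± 0.69 higher with the antibody (adjusted p = 0.874). Between the treatments 0 of 26 members passed with Cd68 as a covariate (1.20% of all genes, 3 members at an unadjusted limma p under 0.05).

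Genes of the same processes outside the set were counted from 4 lists. Of 44 tested genes of licensing and replication, 1 rose and 3 fell with the antibody (median −0.19, against −0.02 over all genes), and 1 rose and 4 fell with FGF21 (median −0.11), each against control. Over all tested genes 2.69% rose and 2.49% fell with the antibody, and 2.64% rose and 3.68% fell with FGF21. The single gene that rose in both was Ung, the uracil DNA glycosylase of base excision repair (0.43 ± 0.11, adjusted p = 0.0305, and 0.53 ± 0.11, adjusted p = 0.0092). Rpa3, the small subunit of the single-strand binding protein RPA, fell by 0.46 ± 0.11 (adjusted p = 0.0257) and 0.59 ± 0.11 (adjusted p = 0.00528). Rnaseh2a, a subunit of RNase H2, fell with the antibody by 0.51 ± 0.09 (adjusted p = 0.00768), and its FGF21 value was −0.28 ± 0.09 (adjusted p = 0.0954). Cdc45, part of the active helicase, fell with FGF21 by 0.34 ± 0.07 (adjusted p = 0.0138). Rfc3, of the clamp loader, fell in both, and Gmnn, the licensing inhibitor geminin, fell with FGF21; both were named after their values were seen. Once control 34 and FGF21 36 were left out 6 of this list fell with the antibody, where 6.97% of all genes fell, and 8 with FGF21, where 9.46% did.

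Of 46 tested genes of mitosis and cytokinesis 2 fell with the antibody and none rose. Over all genes 5.18% passed in either direction, so the count is not a result about the list. With FGF21 none passed in limma, where 6.32% of all genes did, and 1 had an unadjusted p under 0.05 (20.4% of all genes). With the antibody Cenpa, the centromeric histone, fell by 0.66 ± 0.17 (adjusted p = 0.041), and Cenpk, of the inner kinetochore, by 0.60 ± 0.16 (adjusted p = 0.0484). Without the 2 mice Cenpk no longer passed (adjusted p = 0.0559), and Cenpa passed with both agents (adjusted p of 0.0157 and 0.045). Mad2l1, of the spindle checkpoint, was at −0.53 ± 0.18 with the antibody against control (adjusted p = 0.108). Cks2, a CDK binding protein, was at −0.84 ± 0.35 between antibody and FGF21 (adjusted p = 0.322). The list's median was −0.28 for the antibody and 0.02 for FGF21 against control.

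Of 25 tested G1 and S phase regulators 1, Rbl2, passed with the antibody against control, where 5.18% of all genes did. The count is therefore not a result about the list. With FGF21 none passed in limma, where 6.32% of all genes did, and 1 had an unadjusted p under 0.05 (20.4% of all genes). Rbl2 encodes the pocket protein p130 that holds quiescent cells out of the cycle, and it rose by 0.31 ± 0.08 (adjusted p = 0.0342), while its FGF21 value was 0.03 ± 0.08. The difference between the treatments, 0.28 ± 0.08, had an adjusted p of 0.143. Ccnd3, cyclin D3, was at −0.22 ± 0.07 and −0.17 ± 0.07 (adjusted p of 0.0748 and 0.146) and passed in both only without the 2 mice. E2f6, a repressive E2F, was at 0.36 ± 0.13 with the antibody (adjusted p = 0.141), and Tfdp2, a partner of E2F factors, was at 0.23 ± 0.09 between the treatments (adjusted p = 0.288).

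Of 17 tested inhibitors and arrest genes 1 rose and none fell with either agent. Over all tested genes 2.69% rose and 2.49% fell with the antibody, and 2.64% rose and 3.68% fell with FGF21. The count is therefore not a result about the list. Ccng2, cyclin G2, an atypical cyclin of non-dividing cells, rose by 0.63 ± 0.11 with the antibody (adjusted p = 0.00626) and by 0.63 ± 0.11 with FGF21 (adjusted p = 0.0046). The difference between the treatments was 0.01 ± 0.11, with an interval of −0.23 to 0.24. Btg1, an antiproliferative gene, was at 0.57 ± 0.19 and 0.65 ± 0.19 (adjusted p of 0.1 and 0.0533), and Cdkn1a, the CDK inhibitor p21, at 0.66 ± 0.19 and 0.55 ± 0.19 (adjusted p of 0.0631 and 0.113). Wee1, the kinase that holds CDK1 inactive, was at −0.25 ± 0.07 with the antibody (adjusted p = 0.0612). With both mice left out 5 of this list rose and 1 fell with the antibody, Btg1 and Cdkn1a among those that rose, where 5.41% of all genes rose and 6.97% fell. With FGF21 4 rose, Btg1 among them, and 1 fell, where 6.77% of all genes rose and 9.46% fell. None of the 132 tested genes of the 4 lists passed in limma between the treatments, where 0.372% of all genes did. At an unadjusted limma p under 0.05 there were 11, where 13.5% of all genes passed.

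The 10 tested genes outside the set with the pattern most like the mean of its standardized members over the 15 mice had Pearson correlations of 0.965 to 0.99, given as a description. In falling order they were Dbf4, the activating subunit of the CDC7 kinase, Ube2c, Smc4, Pclaf, Naaa, Tk1, Smc2, Incenp, Ckap4 and Il18. Ube2c acts in the anaphase promoting complex, Smc2 and Smc4 form the core of condensin, Pclaf binds PCNA, Tk1 is thymidine kinase and Incenp is the scaffold of the passenger complex. Naaa is a lysosomal amidase and Il18 a cytokine, and neither is a cell cycle gene. Ckap4 was in none of the 4 lists of cell cycle genes, and its role was not assessed here. With control 34 and FGF21 36 left out the correlations of the 10 were 0.864 to 0.966. Dbf4 read 7.61 in control 34 and 6.93 in FGF21 36, against 5.15 to 6.48 in the other 13.

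Within the set, on the probe sets used, the correlation of a member with that mean ran from −0.54 (Tpx2, whose probe sets disagreed) to 0.98 (Mcm5). Without control 34 and FGF21 36 it stayed above 0.9 for Mki67 (0.97), Top2a (0.96), Ccna2 (0.97), Mcm5 (0.96) and Mcm6 (0.93), but was 0.40 for Ccnd2, 0.30 for Kif20a and −0.05 for Tyms. These members entered the mean themselves, so the values are a description.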

How the data were processed

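Whole-tissue RNA was measured on Affymetrix arrays, 1 per mouse. The deposited values are intensities on a linear scale (5.58 to 34652), made by the authors with RMA, per the submitters' processing notes, with no version given in the sources used here. They were taken to log2 with no pseudocount. Of 45101 probe sets, 34958 had 1 gene symbol in the platform annotation, 932 had several and 9211 were unnamed. Genes under the 40th percentile of probe set means (5020) were left out, as in the text. Groups were compared with limma 3.58.1 in R 4.3.3, with 1 model of all 15 samples (12 residual degrees of freedom) and Benjamini-Hochberg adjustment over all tested genes; SEs and 95% intervals are limma's. The scripts were tested on simulated data. The p-values measure the spread between these samples, and 5 arrays a group limit the precision.

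By rule the genes named are all 33 members, the 4 tested genes with the smallest p in each of 4 lists, Cd68, Ucp1, and the 10 genes closest in pattern. Outside the rule, Rfc3 and Gmnn were named after their values were seen, Adipoq as a tissue marker, and cell type markers where they lay under the filter. The members and lists were chosen with earlier results of these data known. Alternatives changed the filter, a pseudocount of 16, normalization, the fit, the covariate and the samples.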

Additional observations from a re-analysis of the deposited data

Results flagged for a closer look

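In 99 sets of 5 mice (33 genes, the 32 measured members and Cd68, in 3 groups) the gap between an extreme mouse and its neighbour, as a share of the group's range, was above the critical value of 0.71 in 15, or 15.2%, where chance gives about 1 in 20. These sets share mice and are not independent. Of the 15, 12 were control 34 lying above the other controls. Its log2 levels there were 8.436 for Cdk1, 7.878 for Ccnb2, 6.886 for Bub1, 6.45 for Aurka, 5.227 for Aurkb and 6.54 for Plk1. They were 6.46 for Cenpe, 6.798 for Nusap1, 7.892 for Prc1, 8.982 for Mcm6, 11.216 for Pcna and 9.771 for Ccnd2. Control 34 was not marked for Mki67, Rrm2, Birc5 or Top2a, whose other controls were spread more widely. FGF21 37 was marked as the lowest of its group for Kif11 (4.948), aFGFR1/KLB 44 as the lowest for Rrm1 (8.359) and FGF21 36 as the highest for Tyms (4.813).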

How the results depend on the processing

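For the antibody against control, 682 of all genes passed, and the count was 178 after centring on ribosomal protein genes, 2307 with array weights, 2006 with Cd68 as a covariate, 1631 without control 34 and FGF21 36, 1419 without them and without a filter, 1230 with the covariate and without them, and 1670 with the macrophage marker mean. Of the members 0 passed, against 13 with the Cd68 covariate, 5 with it and without the 2 mice, 1 with the marker mean (Rrm2) and 1 without the 2 mice and the filter (Kif11). For FGF21 against control 833 genes passed, against 211 with ribosomal centring, 322 with only the 2 groups fitted, 2855 with array weights, 2138 without the 2 mice, 1895 without them and the filter, and 1331 with the marker mean. Of the members 0 passed, against 2 with the Cd68 covariate and 1 with it and without the 2 mice; these reversed, Mki67 to −0.559 and Rrm2 to −0.636 and −0.597. Between the treatments 49 genes passed, against 77 with a stricter filter, 30 with quantile normalization again, 8 with ribosomal centring, 87 with only the 2 groups, 81 with an intensity trend and robust prior, 832 with array weights, 158 with Cd68, 241 without the 2 mice, 193 without them and the filter, 267 with Cd68 and without them, and 126 with the marker mean. Of the members 0 passed, against 1 with array weights (Ccnd1, −0.45). Members associated with Cd68 numbered 23, and 11 without the 2 mice. Ribosomal centring moved the share of calls that were higher from 51.9% to 78.1% with the antibody and from 41.8% to 64.0% with FGF21, and array weights moved it from 34.7% to 56.5% between the treatments. Leaving out 1 mouse gave 336 to 1140 genes (antibody against control), 463 to 2097 (FGF21 against control) and 10 to 251 (between treatments), with the highest count in each without control 34. For the antibody against control the count moved by over 1.5 times without control 31, 32 or 33 (454, 365 and 408) and without aFGFR1/KLB 41, 42, 43 or 44 (386, 336, 421 and 372). For FGF21 it did so without control 31, 32 or 33 (555, 463 and 513) and without FGF21 39 (526). Between the treatments it did so without control 31, 32 or 35 (26, 30 and 30), FGF21 39 or 40 (28 and 10) and each aFGFR1/KLB mouse from 41 to 45 (19, 11, 21, 17 and 28). Members passing with 1 mouse left out were 0 to 1 for FGF21 (Cenpf, without control 34) and 0 in the others, and 20 to 24 were associated with Cd68. The cause of these changes was not tested. No paired analysis was possible because replicate numbers do not repeat between groups. Members near the filter had signal close to background.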
